A study of Mus musculus with 7 samples.

Results

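Zinc-finger genes that lie outside 3 dense gene clusters of the mouse genome were examined for the repressive histone mark H3K9me3, which is histone H3 carrying 3 methyl groups on its lysine 9. The members are the genes whose symbol is Zfp followed by a digit in the GENCODE M1 annotation of mm9, on chromosomes 1 to 19, without those overlapping chromosome 4 from 145 to 148 Mb, chromosome 10 from 80 to 83 Mb or chromosome 13 from 65 to 68 Mb. This rule uses names and positions only and gave 336 of the 376 annotated Zfp genes, out of 37310 annotated genes. Of the others, 31 lie in the 3 windows and 9 on chromosomes X and Y. The members carry 333 distinct symbols, and 331 of them are protein-coding. Their median gene body was 14.1 kb, with a range of 0.675 to 461.7 kb.

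H3K9me3 had been mapped by ChIP-seq, the sequencing of DNA that comes down with an antibody to the mark, in Setdb1 cKO iMEFs, immortalized mouse embryonic fibroblasts of conditional Setdb1 knockout genotype, in which 4-hydroxytamoxifen (4OHT) leads to deletion of Setdb1. The WT group is this line without treatment, and the KO group is the same line given 4OHT for 4 days and harvested on day 7, so that both groups carry the conditional alleles and differ in the drug as well as in the deletion. The line was recloned from a single cell, and each group has 1 H3K9me3 library and 1 input library. Libraries of fetal forebrain from untreated C57BL/6 mice complete the 7 samples, and 5 samples entered no comparison because only the H3K9me3 peak lists of the WT and KO iMEFs were analysed.

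Most Zfp genes encode proteins with C2H2 zinc fingers, small modules that bind DNA and are often repeated in tandem, joined by a short conserved linker, TGEKP. Many also carry a KRAB domain at the other end of the protein, which recruits the corepressor Trim28 and, through it, the H3K9 methyltransferase Setdb1 to retroelements and other targets. In most KRAB zinc-finger genes a single 3′ exon encodes all fingers of the protein, here called the finger array. Zinc-finger genes are also known as a gene class that can carry H3K9me3 itself.

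The sequences below are shown because the tallest and widest peaks in these genes lay on such arrays. They are from NCBIM37 (mm9), read 5′ to 3′ on the coding strand. Capitals mark the codons of the linker TGEKP, with any synonymous codon allowed. The first is 300 bp from the middle of the highest-scoring WT peak of all members, in Zfp951 (chr5:105243766-105244065, minus strand), and holds 4 linkers. The second is from the widest peak of Zfp936 (chr7:50445430-50445729, plus strand), the third is the peak with the highest pileup, in Zfp932 (chr5:110438645-110438939, plus strand), and the fourth is from the highest-scoring peak of Zfp944 (chr17:22476228-22476527, minus strand).
Zfp951: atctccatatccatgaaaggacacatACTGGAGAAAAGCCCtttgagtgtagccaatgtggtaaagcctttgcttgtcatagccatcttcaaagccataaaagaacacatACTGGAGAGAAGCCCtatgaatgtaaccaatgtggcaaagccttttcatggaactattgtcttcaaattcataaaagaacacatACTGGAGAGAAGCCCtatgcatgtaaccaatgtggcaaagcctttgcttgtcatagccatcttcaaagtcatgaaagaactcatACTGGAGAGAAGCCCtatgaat
Zfp936: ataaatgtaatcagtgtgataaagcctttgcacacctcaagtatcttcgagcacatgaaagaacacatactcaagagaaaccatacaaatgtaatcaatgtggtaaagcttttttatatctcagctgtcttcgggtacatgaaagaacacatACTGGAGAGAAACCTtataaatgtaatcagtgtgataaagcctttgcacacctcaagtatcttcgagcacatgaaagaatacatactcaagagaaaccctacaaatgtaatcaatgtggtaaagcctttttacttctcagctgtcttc
Zfp932: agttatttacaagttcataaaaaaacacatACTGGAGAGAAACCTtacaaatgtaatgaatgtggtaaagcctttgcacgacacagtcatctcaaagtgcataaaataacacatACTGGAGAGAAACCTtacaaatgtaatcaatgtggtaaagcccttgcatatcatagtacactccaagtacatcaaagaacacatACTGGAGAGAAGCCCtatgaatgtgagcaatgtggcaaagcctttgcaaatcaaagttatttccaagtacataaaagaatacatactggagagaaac
Zfp944: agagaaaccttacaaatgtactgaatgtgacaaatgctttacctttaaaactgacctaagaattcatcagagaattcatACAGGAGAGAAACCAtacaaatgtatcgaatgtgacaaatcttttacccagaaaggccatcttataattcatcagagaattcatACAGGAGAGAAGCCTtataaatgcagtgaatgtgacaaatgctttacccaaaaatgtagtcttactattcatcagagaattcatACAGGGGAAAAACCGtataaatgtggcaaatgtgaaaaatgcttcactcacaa
The Zfp936 stretch holds 1 exact linker, and the Zfp932 and Zfp944 stretches hold 3 each.

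WT peaks overlapped 66 of the 336 members by at least 1 bp, and KO peaks overlapped 1. The WT share was 19.6% (95% Wilson interval 15.7 to 24.2), beside 8.94% of all 21222 protein-coding genes of chromosomes 1 to 19 outside the windows and 6.51% of all 34345 genes there. The KO share was 0.298% (0.0526 to 1.67), beside 2.30% of the coding genes and 1.64% of all genes. The members' WT interval lay above both background shares, while the KO interval, which rests on 1 gene, lay below the share of coding genes and reached that of all genes. They held 197 of the 23190 WT peaks and 1 of the 3775 KO peaks. Intervals cover counting error only, and those on shares of peaks take peaks as independent, although several can lie in the same gene. With 1 library per group there is no replicate, so no test between WT and KO was made.

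Long genes offer more sequence to overlap, so members and other coding genes were also compared within length classes. Among genes under 10 kb, 14 of 106 members overlapped a WT peak, or 13.2% (8.03 to 20.96), against 156 of 8261 other coding genes, or 1.89% (1.62 to 2.21). From 10 to 30 kb the shares were 21.9% (16.3 to 28.7) of 169 members and 3.97% (3.49 to 4.51) of 5671 other genes. Above 30 kb they were 24.6% (15.5 to 36.7) of 61 members and 20.8% (19.9 to 21.8) of 6959 other genes, and the intervals overlapped. In the KO list the same classes held 0 of 106, 0 of 169 and 1 of 61 members, against 0.605%, 0.864% and 5.59% of other coding genes. The members' intervals, with upper limits of 3.50%, 2.22% and 8.72%, include these shares, so within length classes no difference in KO was detectable. Per Mb of gene body, members held 20.5 WT peaks and the other coding genes 4.33. For KO peaks, without regard to length class, the values were 0.104, which rests on 1 peak, and 0.876.

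**Figure D1:**
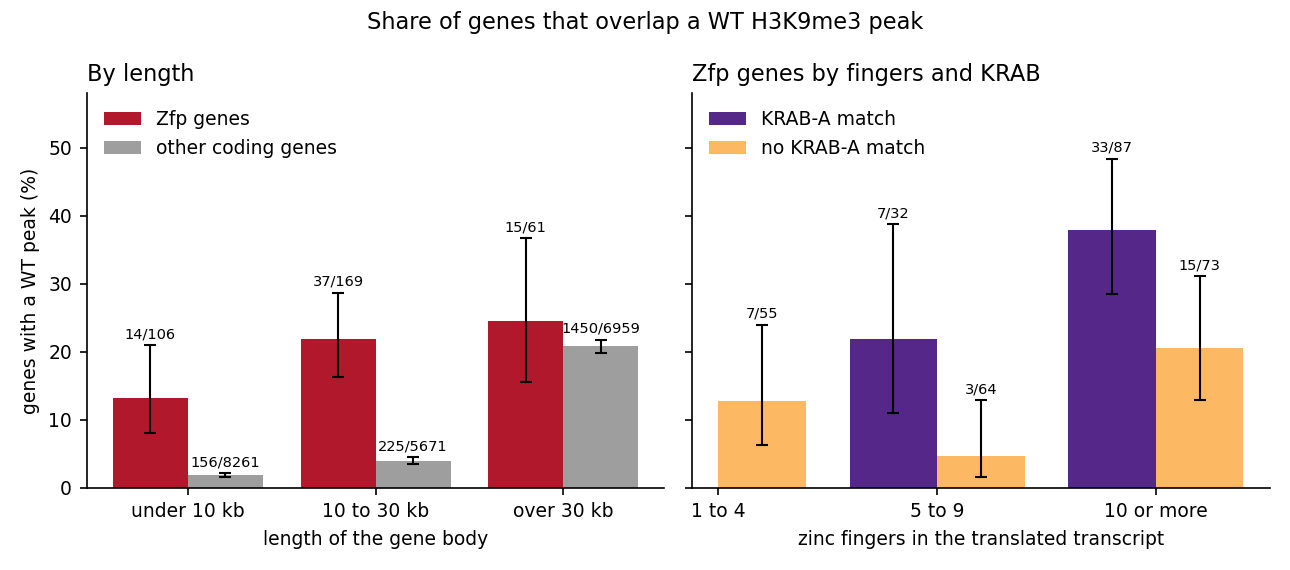
Share of genes overlapping a WT peak, in percent, by length of the gene body for members and other coding genes (left) and by number of zinc fingers and KRAB-A match for members (right). Bars are shares, lines are 95% Wilson intervals and the fractions give genes with a peak of all genes. Below 30 kb the 2 kinds of gene have intervals that do not overlap, and the tallest bar is 37.9%, for members with KRAB and 10 or more fingers. The 2 members with KRAB and 1 to 4 fingers, of which 0 overlapped a peak, and the 18 members with 0 fingers are not drawn.

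The KO list is shorter than the WT list, so the lists were also compared at equal length. Equal length is not an equal threshold. The WT list then stopped at a score (−log10 q) of 4.27, while the KO list went down to 2.31. With the WT list cut to its 3775 best-scoring peaks, coding genes overlapped both lists about equally, at 2.35% for WT and 2.30% for KO. The members did not: 23 of 336, or 6.85% (4.60 to 10.1), overlapped the shortened WT list with 40 peaks, against 1 member and 1 peak in the KO list. For every 100 WT peaks in members there were 0.508 KO peaks (0.0893 to 2.89), compared with 20.2 (18.8 to 21.8) in other coding genes, 13.3 (5.83 to 30.5) in the 31 Zfp genes of the windows and 16.3 in the whole lists. For peaks in single-copy sequence alone the values were 0.775 (0.136 to 4.42) in members and 32.5 (29.4 to 35.9) in other coding genes. These ratios count all KO peaks in the genes, also those away from any WT peak, so they are not shares of WT peaks kept. Other coding genes held 839 KO peaks, 692 of them in genes over 30 kb, while 97 of their 4144 WT peaks overlapped a KO peak. The ratios were not matched for gene length or local background.

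Of the 197 WT peaks in members, 0 overlapped a KO peak, which allows a share of up to 1.52%. In the whole WT list 2.42% of peaks overlapped a KO peak, and in other coding genes 2.34% (1.92 to 2.85). Overlap with the KO list went with the local background of the WT peak, the fragment number the caller took as usual for the region. In members, 166 of 197 WT peaks had a background under 1.5 fragments. Of the 19706 other WT peaks below that value, 166 or 0.842% overlapped a KO peak, and the 0 of 166 in members allows up to 1.81%, so that at equal background no difference was detectable with this number of peaks. A KO peak lay within 1 kb of 1.02% (0.279 to 3.63) of the WT peaks in members, compared with 5.86% of all WT peaks, and within 100 kb of 36.04% compared with 36.8%. These comparisons with all WT peaks were not matched for local background. A position without a KO peak is a position where no peak was called. The lowest local background was 1.16 fragments in the WT list and 1.07 in the KO list. The paper gives an approximate range of read numbers for the iMEF libraries together, not for each. Whether the absence of a call reflects less of the mark, a weaker immunoprecipitation or a lower depth in the KO library was not tested and cannot be told apart from the lists.

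The only KO peak in a member lay in an intron of Zfp385b, a gene of 409.0 kb with 4 fingers and no KRAB match. It is shown because it is the single KO call (chr2:77380004-77380067, minus strand, the coding strand).
Zfp385b: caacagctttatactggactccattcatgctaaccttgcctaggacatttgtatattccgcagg
This peak was 64 bp wide, the lowest width in the KO list, with the lowest pileup called, 9 fragments, a fold enrichment of 4.84 and a score (−log10 q) of 2.96. The body of Zfp385b overlapped 0 WT peaks, and the nearest WT peak stood 1856 bp outside it. Another KO peak stood 53 bp upstream of Zfp936 (chr7:50442317-50442487) with a pileup of 9 and a fold enrichment of 4.402, and it was the only KO peak at a promoter of a member, taken as 2 kb upstream to 0.5 kb downstream of a transcript start. That gene overlapped 5 WT peaks, none of which shared a base with it. Zfp616, Zfp11 and Zfp964 had a KO peak 2464, 5933 and 9189 bp away, and their bodies overlapped 0 WT peaks.

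WT peaks lay toward the 3′ end of the genes. Taking a peak midpoint within 2 kb of either end of the gene body as at that end, 70 of the 197 peaks or 35.5% (29.2 to 42.4) were at the 3′ end in 37 genes, 13 or 6.60% (3.90 to 10.96) at the start in 7 genes, and 114 or 57.9% in the body. Each end window holds 6.77% of the members' gene-body bases, so the pooled share at the start was near its share of sequence. This did not hold within length classes: 10 of the 13 start peaks were in genes under 10 kb, and in members of 10 to 30 kb the start held 1 of 112 peaks, or 0.893% (0.158 to 4.88), where 11.6% of the bases are. In 10 equal bins from the 5′ to the 3′ end, the gene bodies held 6, 5, 8, 10, 11, 10, 18, 22, 46 and 61 peaks. The last exon was overlapped by 102 peaks, or 51.8% (44.8 to 58.7).

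**Figure D2:**
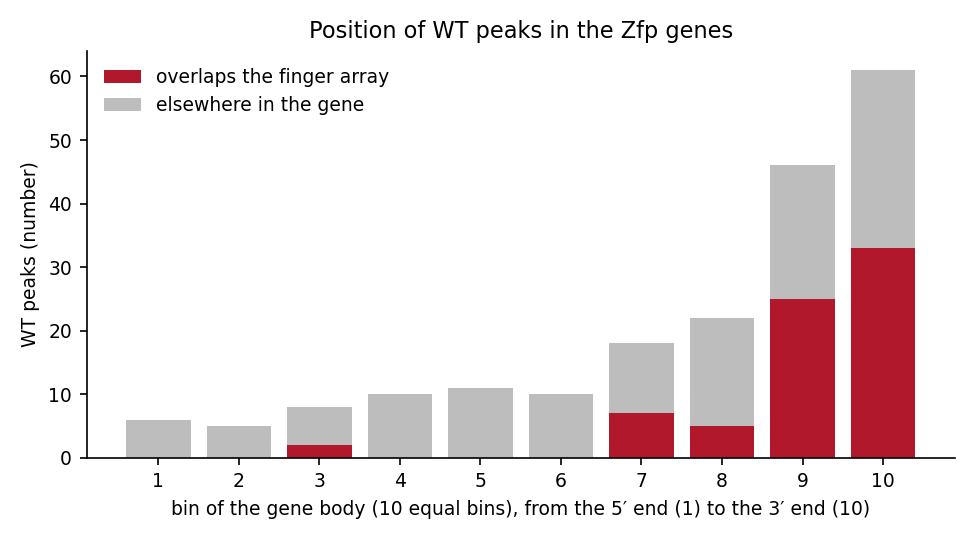
Number of WT peaks in 10 equal bins of the gene body, from the 5′ end to the 3′ end, for the 197 peaks in members. The red part of each bar counts peaks that overlap the finger array, and the last 2 bins hold 46 and 61 peaks, of which 25 and 33 overlap it.

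In all other coding genes the shares of WT peaks at the ends were near the shares of sequence. Of their 4144 WT peaks 3.67% lay at the 3′ end and 4.08% at the start, where each window holds 3.79% of the bases. Within genes of 10 to 30 kb the 3′ end held 33.04% (25.01 to 42.2) of 112 peaks in members and 12.8% (9.75 to 16.7) of 359 peaks in other genes. Within genes over 30 kb the values were 16.7% (8.70 to 29.6) of 48 peaks and 0.501% (0.317 to 0.790) of 3594. In genes under 10 kb, where an end window takes 31.9% of the members' bases, they were 67.6% (51.5 to 80.4) of 37 peaks and 41.5% (35.3 to 48.1) of 224. In each of the 3 length classes the 2 intervals did not overlap. They take peaks as independent, but the members' 37, 112 and 48 peaks lay in only 14, 37 and 15 genes. The intervals may therefore be too narrow, and their lack of overlap is not a test.

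**Figure D3:**
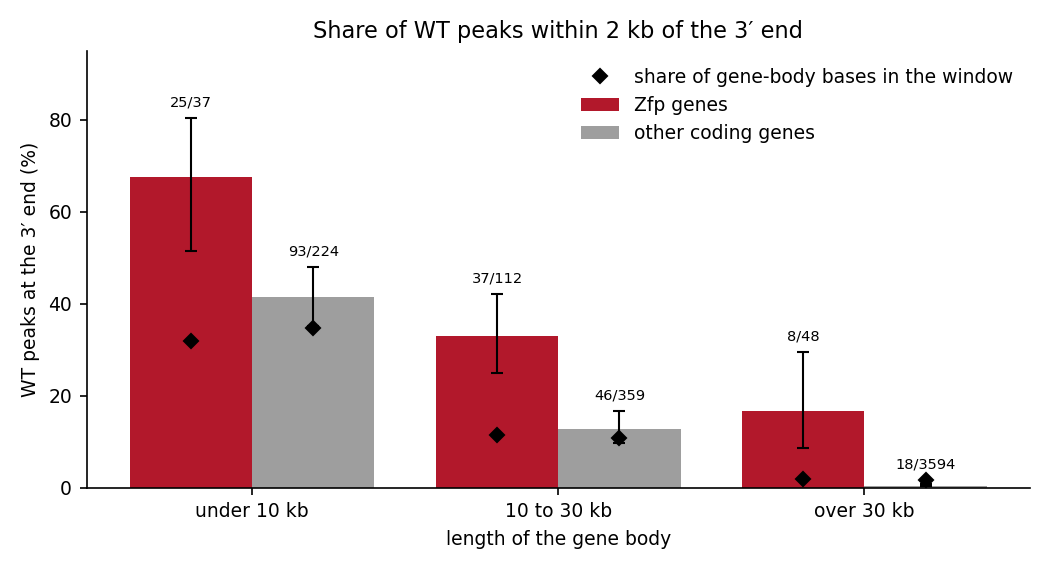
Share of WT peaks whose midpoint lies within 2 kb of the 3′ end, in percent, for members and other coding genes in 3 length classes. Lines are 95% Wilson intervals, fractions are peaks at the 3′ end of all peaks, and diamonds give the share of gene-body bases in that window. The members' bars stand above the diamonds in all 3 classes.

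The finger array was the part of the gene most often overlapped for its size. It makes up 3.47% of the gene-body bases, and 72 peaks or 36.5% (30.1 to 43.5) in 47 genes overlapped it. Introns make up 85.6% of the bases and held 82 peaks, or 41.6% (34.97 to 48.6). Other coding exons held 22 peaks and untranslated or noncoding exons 21. In genes of other names with 10 or more fingers outside the windows, which held 36 WT peaks, 23 overlaps of a peak with an array were counted, beside 63 for the 162 WT peaks of members in that finger class, so the array was often overlapped in both. Some peaks off the array lay near it. Of the 196 peaks in genes with an array, 72 overlapped it. With these included, 121 or 61.7% overlapped it or lay within 1 kb, and 142 within 2 kb. The share of gene-body bases within these distances is not given here.

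Peaks on the array included the widest and tallest. Their median width was 424.5 bp and their median pileup 11 fragments, against 125.5 bp and 9 fragments for intronic peaks. Peaks on other coding exons were 243 bp wide in the median and equal in height, with a median pileup of 11 and a median score of 3.79 against 3.72 on the array. A peak was assigned to the array if it touched it by 1 bp, so wide peaks fall into this class more easily. Of the 13 peaks in members wider than 1 kb, 12 were on the array, and the 2 highest pileups, 26 in Zfp932 and 25 in Zfp951, were there too. Over all 197 peaks the median pileup was 10 and the highest 26, and 37.1% stood at 9 fragments, below which no peak was called. Fold enrichment had a median of 4.75 and the score one of 3.05, beside 4.63 and 3.04 in the whole WT list. Most of these peaks were therefore close to the calling limit.

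**Figure D4:**
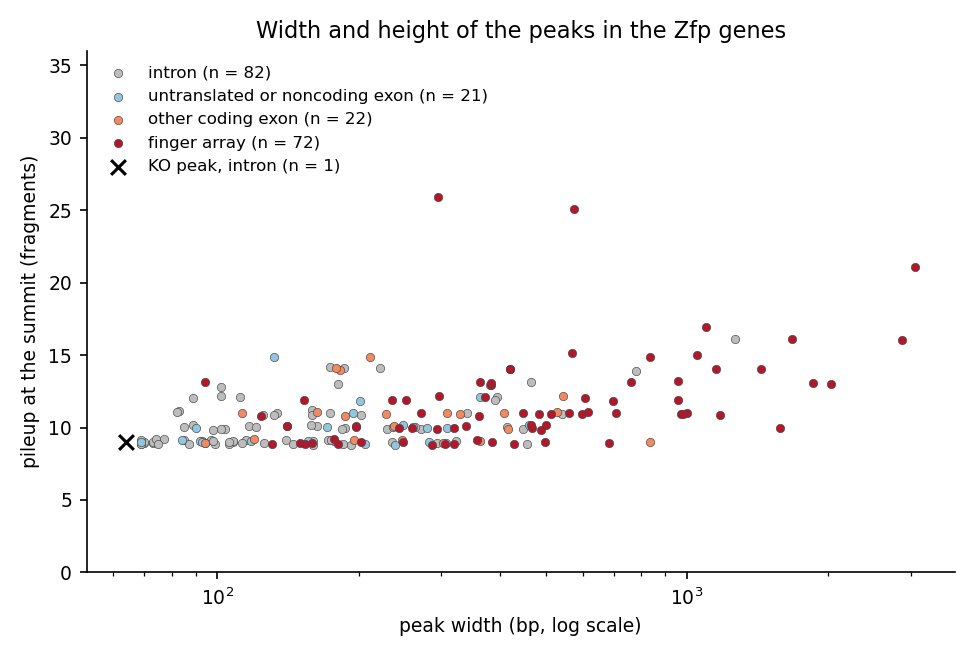
Width in bp (log scale) and pileup at the summit in fragments (shifted by up to 0.2 for display in WT) for the 197 WT peaks and the 1 KO peak in members, coloured by the part of the gene they overlap. Peaks on the finger array reach 3062 bp and 26 fragments, while the KO peak is 64 bp wide with 9 fragments.

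The sequence under these peaks was mostly unique in the genome. The copy number of a peak, the median number of times its 31-mers occur in the mm9 chromosomes, was 1 for 129 of the 197 peaks, or 65.5% (58.6 to 71.8), compared with 28.2% of all WT peaks. Over 1000 copies were found for 3.05% (1.40 to 6.48) of the peaks in members, against 35.6% for the whole WT list. On the array 54 of 72 peaks were single-copy and 0 had over 1000 copies. Multi-hit reads were placed at random by the authors, so peaks in sequence with more copies are less certain as to position. Linker codons stood within the 300 bp around the midpoint of 59 peaks, or 29.9% (23.99 to 36.7), beside 1.41% of all WT peaks, 0.530% of KO peaks and 0.0536% of all 300-bp windows of the autosomes. Of the array peaks 72.2% had them, and of the intronic peaks 3.66%. The members were chosen as zinc-finger genes, whose arrays encode this linker, so an excess over the whole list follows from that choice. Both strands were searched, and a match describes the sequence there, which need not be annotated as coding: 3 of the peaks with a match were intronic.

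Members with many fingers or a KRAB-A match overlapped WT peaks more often. The WT share was 1 of 18 members with 0 fingers, 7 of 57 with 1 to 4, 10 of 96 with 5 to 9, and 48 of 160, or 30% (23.4 to 37.5), with 10 or more. Members with a KRAB-A match overlapped WT peaks in 40 of 122 cases, or 32.8% (25.1 to 41.5), and those without in 26 of 209, or 12.4% (8.63 to 17.6). Both features together gave the highest share, 33 of 87 or 37.9% (28.5 to 48.4), while 10 or more fingers without a KRAB-A match gave 15 of 73 or 20.5% (12.9 to 31.2). A KRAB-A match with 5 to 9 fingers gave 7 of 32, or 21.9% (11.02 to 38.8). For 5 to 9 fingers without a match it was 3 of 64, or 4.69% (1.61 to 12.9). In both of these finger classes the intervals with and without a match overlapped. Other coding genes with a KRAB-A match overlapped WT peaks in 20 of 84 cases, or 23.8% (15.97 to 33.9). By fingers, other coding genes gave 37 of 190 (19.5%) with 1 to 4, 14 of 88 (15.9%) with 5 to 9 and 14 of 70 (20%) with 10 or more. The members' shares were lower with 1 to 4 (12.3%) and 5 to 9 (10.4%) and higher with 10 or more or KRAB. The intervals of both kinds of gene overlapped in each of these classes. Having another Zfp gene within 100 kb went with 41 of 179 members (22.9%, 17.4 to 29.6), and having none with 25 of 157 (15.9%, 11.02 to 22.5), with overlapping intervals. Among KRAB members the order was the other way, at 30 of 96 (31.3%, 22.9 to 41.1) with such a neighbour and 10 of 26 (38.5%, 22.4 to 57.5) without. Some gene models may be incomplete, since fingers and KRAB were read from the annotated coding transcripts. KRAB means here a match to a fixed sequence pattern. A gene whose KRAB domain departs from that pattern counts as without KRAB, so a missing match does not show that the domain is absent.

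Members with the most peaks mostly encoded 10 or more fingers, and many of them lay on chromosome 17. The 20 members with the most WT peaks held 117 of the 197. Of these 20, 19 encode 10 or more fingers, 13 have a KRAB match, 19 have a peak on the array and 8 lie on chromosome 17. The exception to the finger number was Zfp68, with 9, and the exception to the array was Zfp960. Among all 66 members with a WT peak the same counts were 48, 40, 47 and 16, so the KRAB share of the 20 is near that of the 66. All 20 overlapped 0 KO peaks, where 1 of all 336 members overlapped any.

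**Figure D5:**
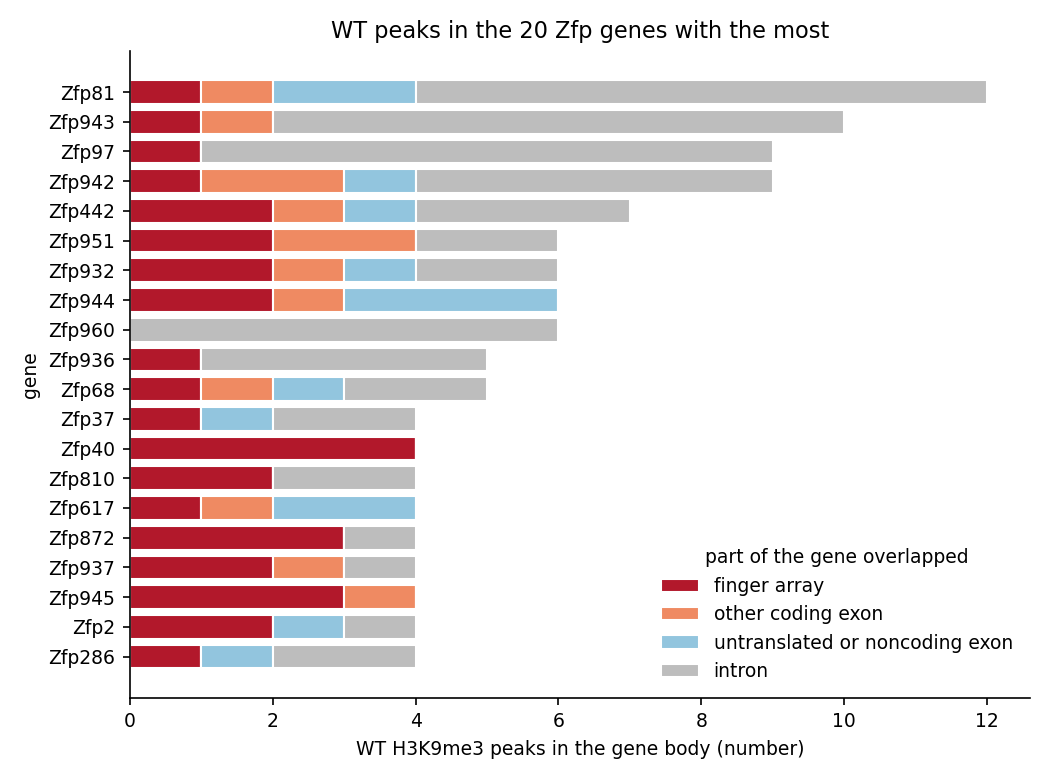
Number of WT peaks in each of the 20 members with the most, coloured by the part of the gene they overlap. Zfp81 leads with 12 peaks, all but Zfp960 have a red segment for the finger array, and each of the 20 overlapped 0 KO peaks.

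Zfp81 (chromosome 17, 33466287 to 33495823, 11 fingers, KRAB) had 12 WT and 0 KO peaks. All 12 were in the body by the 2-kb rule, 8 of them in introns, with pileups of 9 to 12 and widths of 69 to 1002 bp. The widest of them lay on the array and held linker codons. The tallest, at a pileup of 12, were 1 intronic peak and 1 in the finger exon beside the array.

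Zfp943 (chromosome 17, 22099519 to 22208135, 11 fingers, KRAB) had 10 WT and 0 KO peaks. Its gene model spans 108.6 kb and runs far beyond the array, so a peak of 834 bp on the array, with a pileup of 15 and a score of 7.31, counts as in the body. Its highest-scoring peak was intronic, 1263 bp wide with a pileup of 16 and a score of 8.64, and 3 linker matches stood in its 300 bp. Of its intronic peaks, 3 also overlap the annotated genes Gm9772 or Gm7052, so they cannot be assigned to Zfp943 alone.

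Zfp942 (chromosome 17, 22063927 to 22099431, 11 fingers, no KRAB match) is the neighbour of Zfp943 and had 9 WT and 0 KO peaks. They formed a run in the 3′ part of the gene, with a peak of 2023 bp and a pileup of 13 on the array. The peaks with the highest score, 8.02 at a pileup of 15, were 1 in the untranslated 3′ part and 1 in another coding exon. Zfp942, Zfp943 and Zfp947, with 3 peaks, belong to a group of 6 members within 0.458 Mb that held 22 WT peaks in gene bodies. Over the whole span of that group, 21844708 to 22303157, there were 40 WT peaks and 1 KO peak.

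Zfp97 (chromosome 17, 17258379 to 17283795, 13 fingers, KRAB) had 9 WT and 0 KO peaks. The widest peak of all members, 3062 bp with a pileup of 21 and a score of 8.15, overlapped its array. The other 8 were intronic with pileups of 9 to 14. Its neighbour Zfp960 (17201077 to 17226592, 13 fingers, KRAB) had 6 WT peaks, all intronic, with pileups of 9 to 14 and 0 in single-copy sequence. The peaks of both genes had a copy number of at least 2, so with the random placement of multi-hit reads the gene of origin is uncertain. Their span held 30 WT and 0 KO peaks.

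Zfp944 (chromosome 17, 22474956 to 22498367, 11 fingers, KRAB) had 6 WT and 0 KO peaks, all in single-copy sequence and all in exons. The tallest, 570 bp with a pileup of 15 and a score of 7.31, is the source of the sequence shown above. Zfp40 (23310836 to 23330219, 16 fingers) had 4 WT peaks, all 4 on the array, with pileups of 9, 12, 12 and 9. Zfp945 (22983664 to 23004101, 18 fingers) had 4, of which 3 were on the array, with a highest pileup of 13. Both overlapped 0 KO peaks.

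Away from chromosome 17, Zfp951 (chromosome 5, 105242366 to 105246371, 10 fingers, KRAB) had 6 WT and 0 KO peaks in an annotated body of 4.01 kb. The tallest peak on its array reached 25 fragments, at a fold enrichment of 8.75 with a score of 14.4, and both of these were the highest of all members. A peak of 1050 bp with a pileup of 15 lay on the same array, and the pileups of the other 4 were 9, 10, 11 and 14. Because the gene model is short, 4 of the 6 peaks counted as at the start and 2 as at the 3′ end.

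Zfp932 (chromosome 5, 110425540 to 110439430, 15 fingers, KRAB), whose protein is known to bind endogenous retroviruses, had 6 WT and 0 KO peaks. The pileups were 14, 9, 11, 17, 26 and 10 from the 5′ to the 3′ end, so the tallest pair was on the array. The peak of 26 fragments had a fold of only 4.82, because its local background was 4.60 fragments, the highest of the peaks in members.

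Zfp936 (chromosome 7, 50442540 to 50445851, 11 fingers, KRAB) had 5 WT and 0 KO peaks in a body of 3.31 kb. The pileups were 12, 12, 9, 9 and 16 from the 5′ to the 3′ end, and the last peak, 1676 bp wide with a score of 9.06, overlapped the array. This was the only member with both WT peaks and a KO peak within 1 kb of the gene.

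On chromosome 2, Zfp442 (150232877 to 150277222, 17 fingers, KRAB) had 7 WT peaks with pileups of 9 to 12, of which 2 were on the array. Zfp937 (150043809 to 150066461, 14 fingers, KRAB) had 4, with pileups of 9 to 11. On chromosome 9, Zfp810 (22082669 to 22094985, 10 fingers, KRAB) had 4 peaks, all at the 3′ end. Zfp872 (22001511 to 22005068, 12 fingers) had 4 at the 3′ end as well, each with a pileup of 11, and 3 of them were on the array. None of these 4 genes overlapped a KO peak.

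The other genes among the 20 each overlapped 0 KO peaks. Zfp68 (chromosome 5, 139045844 to 139060989, 9 fingers) had 5 WT peaks with pileups of 10 to 14, all in single-copy sequence. Zfp37 (chromosome 4, 61850574 to 61869480, 11 fingers) had 4, the tallest on the array with a pileup of 14 and a score of 7.03. Zfp617 (chromosome 8, 74432534 to 74458528, 14 fingers, KRAB) had 4 with pileups of 9 to 13. On chromosome 11, Zfp2 (50712214 to 50729667, 13 fingers) had 4 with a highest pileup of 10, among them a peak of 1580 bp on the array. Zfp286 (62566879 to 62602964, 10 fingers, KRAB) had 4 with pileups of 9 or 10.

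The other 46 members with a WT peak held 80 peaks. Their tallest peaks had pileups of 9 to 16, with a median of 10, and 28 of these genes had a peak on the array. Among all 66, 21 had 1 peak, 16 had 2 and 9 had 3. Of the 197 peaks, 15 also overlapped another annotated gene. This applies to all peaks of Zfp125, Zfp167, Zfp866, Zfp90 and Zfp950 and to some of Zfp68 and Zfp943.

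The highest-scoring peaks at the start of a member were in Zfp950, Zfp125 and Zfp951. Zfp950 (chromosome 19, 61192870 to 61195084) had 1 peak with a pileup of 14 and a score of 5.81. Its annotated transcript encodes 0 complete fingers, yet 3 linker matches stood in the 300 bp of this peak, so the model may be incomplete, and the peak also overlaps 5830428H23Rik. Zfp125 (chromosome 12, 20905683 to 20906728) has a body of 1.05 kb and 3 peaks, of which the one at the start had a pileup of 11 and a score of 4.27. The start peak of Zfp951 had the same pileup and score. All 3 gene models are short, at 1.05 to 4.01 kb, so the start and the 3′ end lie close together. A WT peak overlapped a promoter in 22 members, or 6.55% (4.36 to 9.71), and in 1.72% of all coding genes. Every annotated transcript start was counted, also those inside the gene, and gene length and transcript number were not matched. By the 2-kb rule, 7 members had a WT peak at the start of the gene body.

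A list of 15 genes with well-known roles was also read. Of these, 14 are members, and 13 overlapped 0 WT and 0 KO peaks, where 80.4% of all members overlapped 0 WT peaks, so the count does not set the list apart. The 13 were Zfp809, which silences retroviruses, Zfp57, which protects imprinted methylation, Zfp568, a KRAB protein of embryonic development, and Zfp42 (Rex1), a marker of pluripotent cells. They also included the transcription regulators Zfp423, Zfp521, Zfp281, Zfp143, Zfp148 and Zfp335, of which Zfp423 and Zfp521 encode 27 fingers each, and the RNA-binding proteins Zfp36, Zfp36l1 and Zfp36l2, which encode 0 C2H2 fingers. Zfp932 was the exception, with its 6 WT peaks. The nearest WT peak to Zfp809 stood 18123 bp away, although Zfp872 and Zfp810 of the same group of genes on chromosome 9 carried 4 peaks each.

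The silencing machinery that KRAB proteins recruit was counted as well. Of 23 such genes, 22 were found in the annotation, and 1 overlapped a WT peak and 0 a KO peak, beside 8.94% and 2.30% of coding genes, so the counts are near the background. The WT peak was in an intron of Mphosph8, a component of the HUSH silencing complex, with a pileup of 11 and a copy number of 4. Setdb1 itself and Trim28 overlapped 0 peaks in either list, and the peak lists hold no measure of the deletion.

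On chromosome 17, 16 of 45 members, or 35.6% (23.2 to 50.2), held 77 WT peaks, beside 8.32% of the other coding genes there. On chromosome 7, which has the most members, 6 of 88, or 6.82% (3.16 to 14.1), held 11 peaks, near the 4.84% of other coding genes. Among KRAB members alone the counts were 12 of 29 on chromosome 17 and 4 of 33 on chromosome 7. On chromosome 5, 8 of 19 members, or 42.1% (23.1 to 63.7), held 24 peaks, beside 12.1% of other coding genes. On chromosome 2, 6 of 19, or 31.6% (15.4 to 53.99), held 19, beside 8.54%. The members of chromosomes 1, 10, 14, 15 and 16 overlapped 0 WT peaks, but with 2 to 11 on each the intervals reach 25.9% to 65.8%.

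The 270 members without a WT peak were not uniformly far from the mark. A WT peak lay within 2 kb of 4 of them and within 10 kb of 38, and the median distance was 58410 bp. They included 82 with a KRAB match and 112 with 10 or more fingers, so most genes of either kind overlapped 0 peaks in the list. At these pileups a position below 9 fragments is not listed, and H3K9me3 below that level was not detectable.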

How the data were processed

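Native chromatin of iMEFs was digested with micrococcal nuclease and precipitated with a polyclonal H3K9me3 antibody. The authors aligned single-end reads to mm9 with Bowtie2 2.2.3, assigning multi-hit reads at random, and removed duplicates with Picard. Peaks were called with MACS 2.1.0.20140616 per the file headers, with 1 library per list. Caller options and the use of input are not given in the sources used here. The deposited pileup is a coverage signal in fragments at the summit. The deposited fold enrichment is a ratio, computed from the pileup plus 1 over the local background plus 1. The deposited −log10 p and −log10 q belong to single peaks, and −log10 q is called the score. Read totals are not part of the lists. The paper gives only an approximate range for the iMEF libraries together, so the depth behind each list is not known exactly. Starts were read as counting from 0 and are given counting from 1, and this convention is not stated, so each start is uncertain by 1 bp.

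Gene bodies of GENCODE M1 on NCBIM37 (mm9) were overlapped with the peaks. Fingers (PROSITE C2H2 form) and KRAB-A matches were read from translated GENCODE transcripts, taking the transcript with most fingers, in place of the planned RefSeq proteins. Parts of a gene were ranked as array, other coding exon, other exon, intron. Background was (pileup + 1) / fold − 1. Wilson intervals have a level of 95%, those of KO peaks per WT peaks come from the KO share of both counts, and a count of 0 allows 3 counts.

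Named genes were those with a KO peak, those with a WT peak overlapping a KO peak, the 20 with most WT peaks, the 5 with the highest scores, the 3 with the highest-scoring start peaks, 15 with known roles and the machinery list. Genes near a KO peak, those sharing peaks with another gene, and Zfp947 were named after their values were seen. Members, classes and lists were chosen with earlier results of these data known. Interval, finger, linker and copy-number code was tested on simulated data. No p-value was computed because there are no replicates. Software was Python 3.11.15 with matplotlib 3.10.9, pysam 0.24.0, numba 0.67.0, scipy 1.17.1, pandas 2.3.3 and numpy 2.4.6.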

Additional observations from a re-analysis of the deposited data

How the results depend on the processing

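Each result was recomputed under other peak thresholds, overlaps and windows. With scores at or above the WT median, 51 members overlapped WT peaks and 110 WT peaks lay in members, while members with a KO peak and KO peaks in members were both 0. The share of WT peaks at the 3′ end was then 42.7%, in the last exon 63.6% and with linker codons 38.2%. With the WT list shortened to the length of the KO list, 23 members held 40 WT peaks, of which 55.0% were at the 3′ end, 2.5% at the start, 72.5% in the last exon and 52.5% with linker codons. Merging peaks within 1 kb left 105 WT peaks, with 3.81% at the start and 37.1% with linker codons. Single-copy peaks alone numbered 129 in WT, with 61.2% in the last exon. Extending gene bodies by 2 kb gave 2 members and 2 peaks in KO, and 2 WT peaks in members had a KO peak within 1 kb. A window of 1 kb placed 19.8% of WT peaks at the 3′ end and 3.55% at the start, a window of 5 kb placed 63.5% at the 3′ end, and with the gene body cut into 3 equal parts the last held 68.02% and the first 11.7%. Lower counts in shorter lists, and the effects of wider or narrower windows, follow by construction, and the cause of the other shifts in shares was not tested. In each setting that recomputed both shares the 3′ end held more WT peaks than the start. The share on the finger array, added after seeing the data, ranged from 28.4%, by peak midpoint, to 60%, in the shortened list. Restriction to protein-coding members left all 10 results as they were. No paired analysis was possible because there is 1 library on either side. Low pileups, at a median of 10 fragments against the lowest called of 9, limit every count.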

Other observations

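Genes with 10 or more fingers that carry other names were counted in the same way. Outside the windows, 14 of 70 such genes overlapped WT peaks, or 20% (12.3 to 30.8), with 36 WT and 0 KO peaks. They were chosen after the values of the members were seen, and the 0 KO peaks of the 160 members of that finger class stand beside them. The genes with the most were 2610008E11Rik on chromosome 10, with 14 fingers and 5 WT peaks, and Gm15446 on chromosome 5, with 16 fingers, a KRAB match and 4 WT peaks. Prdm9, the methyltransferase that places meiotic recombination sites, encodes 12 fingers and had 1 WT peak.

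Inside the windows the counts were of another size. Of 16 genes with 10 or more fingers and other names, 14 overlapped 101 WT peaks and 9 overlapped 25 KO peaks. The 23 Zfp genes of that finger class there held 39 WT and 6 KO peaks.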
